A study of Mus musculus with 16 samples.

Results

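The glutamate and GABA receptor subunits are the 46 protein-coding genes, of 55573 genes in the count table, whose symbols name a subunit of an AMPA or delta (Gria, Grid), kainate (Grik), NMDA (Grin), metabotropic glutamate (Grm), GABA-A (Gabr) or GABA-B (Gabbr) receptor, leaving out Gabra2, which was not analysed here. They were picked by symbol and not by any measured value. The set holds 26 genes for glutamate receptors (6 AMPA and delta, 5 kainate, 7 NMDA and 8 metabotropic) and 20 for GABA receptors (18 GABA-A and 2 GABA-B). RNA was sequenced from mouse cerebral cortex at about postnatal day 180, in 16 untreated libraries that form 4 groups of 4. Aifm1-KI mice carry a knock-in that deletes arginine 200 of Aifm1, the mitochondrial apoptosis-inducing factor, and Aifm1-WT are their wild-type littermates. Hq-mut mice carry the Harlequin (Hq) mutation, a low-expression allele of the same gene, and Hq-WT are the wild-type littermates of that line. The Harlequin stock is given as B6CBACa Aw-J/A-Aifm1Hq/J while the strain label of every sample is C57BL/6, so between the lines the allele and the genetic background cannot be told apart. The labels do not say that each library is a separate animal, and p-values measure only the spread between these libraries.

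Fast excitation in cortex runs through AMPA, kainate and NMDA receptors, cation channels that each combine several subunits, while metabotropic glutamate receptors act through G proteins. Fast inhibition runs through GABA-A receptors, chloride channels whose subunits are most often alpha, beta and gamma, and slow inhibition through GABA-B receptors, which are obligate pairs of Gabbr1 and Gabbr2. Which subunits a cell makes sets the kinetics, the calcium permeability and the location of its receptors. The subunit mix also differs between cell types and between brain regions, so a piece of tissue holds a mixture. In whole tissue, fewer cells of a type and less RNA per cell cannot be told apart.

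The libraries held between 10671580 and 32551594 counted reads. Values below are CPM, read counts scaled to library size with TMM factors over the 16 libraries. Before TMM scaling, 3 counts, the limit that a count of 0 allows, correspond to between 0.0922 and 0.281 CPM in a library. Such limits cover counting error only. Aifm1 had 3.77, 2.22, 3.28 and 4.01 CPM in Hq-mut libraries 1 to 4, against 23.1, 25.8, 23.5 and 23.4 CPM in Hq-WT libraries 1 to 4. The paired edgeR quasi-likelihood test gave a log2 fold change of -2.89 with a Benjamini-Hochberg adjusted p of 0.00101, and all Hq-mut libraries lay under all Hq-WT libraries. In the knock-in line Aifm1 had 23.7 ± 1.84 CPM in Aifm1-KI and 22.7 ± 0.81 CPM in Aifm1-WT (SD, n = 4 each), and gene counts cannot show whether the deletion is present. Markers of excitatory neurons, inhibitory neurons, astrocytes, oligodendrocytes and microglia, taken as lists of 10 genes each, had reads in all 16 libraries. Some libraries stood apart in markers of neighbouring regions. The 10 striatal markers summed to 640 and 591 CPM in Aifm1-KI 2 and 4 and to 853 CPM in Hq-mut 3, against 227 to 369 CPM in the other 13 libraries. The 8 choroid plexus markers summed to 2877 CPM in Aifm1-KI 2 and 5505 CPM in Hq-WT 2, against 6.59 to 383 CPM elsewhere. Fits without Aifm1-KI 2 and 4, and fits without the Harlequin pair of Hq-mut 3 or that of Hq-WT 2, are given below for some results.

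To compare levels between genes, CPM were divided by the kilobases of annotated exon of each gene. On this scale the GABA-B pair had the highest means, with a mean over 16 libraries of 109 CPM per kb for Gabbr1, the subunit that binds GABA, and 73.4 CPM per kb for Gabbr2, which couples the receptor to G proteins. Gabbr1 was also steady, with 811, 809, 828 and 835 CPM in Aifm1-KI, 866, 785, 788 and 833 CPM in Aifm1-WT, 910.0, 912, 884 and 874 CPM in Hq-mut and 853, 894, 783 and 866 CPM in Hq-WT. Among AMPA subunits the levels were 64.1 CPM per kb for Gria1, 63.3 for Gria2, whose edited form keeps calcium out of the channel, 34.7 for Gria3 and 23.8 for Gria4. The 16-library ranges of Gria1 and Gria2 overlapped, so their order is not settled, and those of Gria3 and Gria4 overlapped too. The delta subunits, which act at synapses as partners of secreted cerebellins, were lower, with Grid1 at 11.6 CPM per kb.

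Kainate subunits were led by Grik5, a high-affinity subunit that needs Grik1, Grik2 or Grik3 to form a channel. Its level was 47.6 CPM per kb, and those of Grik3, Grik2, Grik4 and Grik1 were 15.7, 6.25, 5.17 and 3.06 CPM per kb. The ranges of Grik5, Grik3 and Grik2 were apart from one another, while Grik4 overlapped both Grik2 and Grik1. Grik5 had 234, 244, 228 and 277 CPM in Aifm1-KI, 233, 254, 249 and 225 CPM in Aifm1-WT, 263, 281, 231 and 238 CPM in Hq-mut and 260.4, 237, 239.5 and 245 CPM in Hq-WT, with all groups overlapping. Among NMDA subunits, Grin1, which every NMDA receptor contains, had 34.9 CPM per kb. Next came Grin2b at 25.6 CPM per kb and Grin2a at 18.2, the glutamate-binding subunits of forebrain principal cells. Grin2c, Grin3a and Grin2d had 9.70, 4.57 and 2.82 CPM per kb, and Grin3b was near the floor at 0.080. From Grin1 to Grin2d the range of each gene overlapped that of the next, for example 28.7 to 40.1 CPM per kb for Grin1 and 11.4 to 37.8 for Grin2b. Grin1 had 324, 278, 369 and 319 CPM in Aifm1-KI, 339, 348, 337 and 346 CPM in Aifm1-WT, 349, 336, 351 and 388 CPM in Hq-mut and 331, 315, 321 and 359 CPM in Hq-WT, and the mutant and wild-type ranges of each line overlapped.

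The metabotropic receptors with the highest means were Grm5, a group I receptor that couples to phospholipase C, at 23.9 CPM per kb, and Grm3, a group II receptor found on neurons and astrocytes, at 21.2. Their ranges overlapped and their order differed by group. Grm5 averaged 28.1 CPM per kb in Aifm1-KI and 22.2 in Aifm1-WT, while Grm3 averaged 17.5 in Aifm1-KI and 20.3 in Aifm1-WT. In the Harlequin line Grm3 was the higher one, at 24.4 CPM per kb in Hq-mut and 22.8 in Hq-WT, against 23.0 in Hq-mut and 22.3 in Hq-WT for Grm5. Grm7, Grm2, Grm4 and Grm8 had 11.5, 9.30, 4.68 and 1.998 CPM per kb. Grm6, the receptor of retinal ON bipolar cells, was at 0.0052 CPM per kb, with 10 reads in all libraries together. Grm5 had 300.2, 343, 224 and 283 CPM in Aifm1-KI against 237, 235, 227 and 212 CPM in Aifm1-WT, and 287, 145, 249.8 and 259 CPM in Hq-mut against 294, 201, 191 and 229 CPM in Hq-WT. Its knock-in libraries other than the third were all above the wild types, and the Harlequin groups overlapped.

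Among the GABA-A subunits named here, Gabra3 was at 43.6 CPM per kb, Gabrb2 at 23.1, Gabra4 at 20.97 and Gabrd at 20.002. Gabrb2 is a common beta subunit of adult synaptic GABA-A receptors, while Gabrd forms extrasynaptic receptors that carry tonic inhibition. Gabra5, Gabrb1, Gabrg3 and Gabrg1 followed at 16.05, 15.9, 3.81 and 3.77 CPM per kb. Among these, the range of Gabra3 overlapped that of Gabrb2, and from Gabrb2 to Gabrb1 each range overlapped the next, while Gabrg3 and Gabrg1 lay below Gabrb1 in every library. Low but above the floor were the theta subunit Gabrq, at 0.514 to 1.37 CPM outside Aifm1-KI 2 and 4, and the rho subunit Gabrr2, known from retina, at 0.146 to 1.03 CPM. At or near the floor in most libraries were the epsilon subunit Gabre, the cerebellar granule cell subunit Gabra6, the rho subunits Gabrr1 and Gabrr3, and the pi subunit Gabrp, which had 1 read in all. Long annotated exons, such as the 24842 bases of Grin2b, lower a gene's value on this scale.

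**Figure D1:**
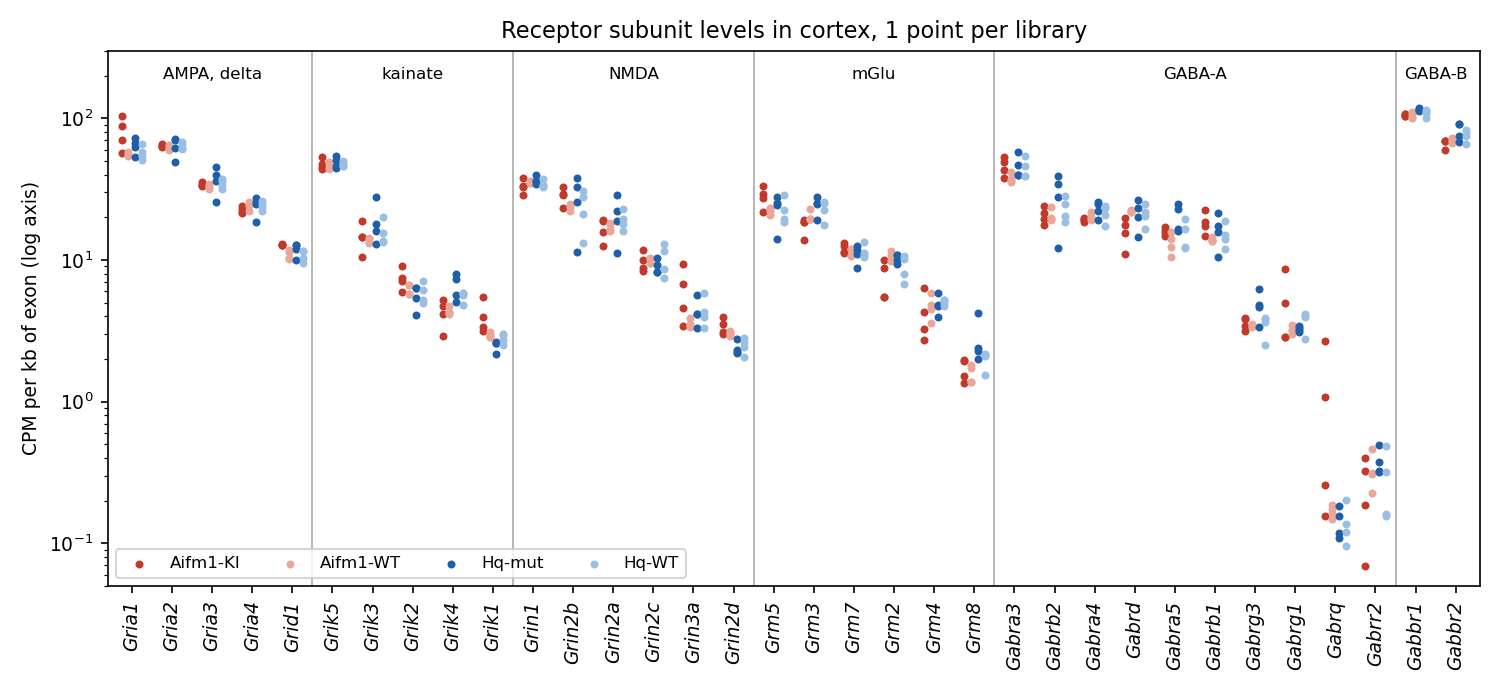
CPM per kb of exon on a log axis for receptor subunits tested in both lines, some members left out, grouped by family, with 1 point per library coloured by group. Many neighbouring genes of a family overlap, while others lie apart, for example Gria1 and Gria2 above Grid1, and the points of the 4 groups lie close together for most genes.

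Many GABA-A genes sit in clusters, and 22 of the 46 members overlap a gene on the opposite strand. Since the strand setting of the counting is not given in the sources used here, reads from such overlaps cannot be told apart. In GENCODE M21 coordinates (GRCm38, mm10), Gabra6 and Gabrb2 lie between 42306437 and 42629028 on chromosome 11, Gabrg1, Gabra4 and Gabrb1 between 70751047 and 72149037 on chromosome 5, Gabrg3 and Gabra5 between 56716465 and 57510059 on chromosome 7, and Gabre, Gabra3 and Gabrq between 72255999 and 72842602 on the X chromosome. Gabra4 and Gabrb1 run outward from a shared start region, and their annotated 5′ ends overlap by 196 bases, from 71658113 to 71658308. They are shown because these neighbours had different values in the knock-in comparison below, and the pair was picked after its values were seen. The sequences are the 250 bases before each RefSeq start in GRCm38.p6, chr5:71657671-71657920 on the plus strand for Gabrb1 and chr5:71658309-71658558 on the minus strand for Gabra4, each written 5′ to 3′ in its own gene's direction, with every CG in capitals.
Gabrb1: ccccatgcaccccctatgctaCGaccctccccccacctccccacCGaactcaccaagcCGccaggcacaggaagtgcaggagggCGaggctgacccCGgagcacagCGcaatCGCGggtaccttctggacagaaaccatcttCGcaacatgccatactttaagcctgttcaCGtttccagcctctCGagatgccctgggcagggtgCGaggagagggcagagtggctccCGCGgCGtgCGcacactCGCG
Gabra4: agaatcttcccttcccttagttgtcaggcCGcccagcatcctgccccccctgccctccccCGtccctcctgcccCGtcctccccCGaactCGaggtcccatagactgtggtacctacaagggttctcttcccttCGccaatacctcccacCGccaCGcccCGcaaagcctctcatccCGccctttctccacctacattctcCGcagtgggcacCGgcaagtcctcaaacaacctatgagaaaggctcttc
The Gabrb1 window holds 18 CG and the Gabra4 window 12. Of 32851 RefSeq promoter windows of this length, 92.1% held at least 1 CG and the median was 6. This describes the letters in the windows and says nothing of regulation.

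The first comparison set the knock-in against its wild-type littermates and asked which receptor subunits differ in cortex that carries the Aifm1 deletion. No receptor subunit was called at an adjusted p under 0.05 by the edgeR quasi-likelihood test, where the whole table gave 0 calls (0% of 18383 genes tested), and the lowest adjusted p of a member was 0.368. Of the 46 members, 40 had enough reads to be tested. At an unadjusted p under 0.05, 14 of these 40 were higher in Aifm1-KI, against 7.05% of all genes tested, and 2 were lower, Gabrd and Grm2, against 4.34% of all genes. Either way, 16 of 40 members met that unadjusted threshold, against a background of 11.4%. The median log2 fold change was 0.06 over the members and 0.0055 over all genes, and 25 of 40 members were above 0, against 51.6% of all genes. These counts are a description, since the genes of a library are not independent of one another.

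Among AMPA and delta subunits, Gria1 had 427, 628, 342 and 532 CPM in Aifm1-KI libraries 1 to 4, against 348, 339, 327 and 331 CPM in Aifm1-WT. Aifm1-KI 2 and 4 were far above every wild type, Aifm1-KI 1 was above them by less, and Aifm1-KI 3 lay among them. The log2 fold change was 0.53 (± 0.15 SE, adjusted p 0.368 by edgeR). The share of Gria1 in the summed per-kb level of its family was 36.8 ± 6.16% in Aifm1-KI and 29.8 ± 0.71% in Aifm1-WT (SD, n = 4 each). Grid1 had 76.4, 76.4, 76.02 and 76.8 CPM in Aifm1-KI, against 70.3, 61.3, 60.3 and 68.2 CPM in Aifm1-WT. The knock-in libraries agree to within 1 CPM and all lay above the wild types, for a log2 fold change of 0.25 (± 0.06 SE, adjusted p 0.368 by edgeR). Gria2, Gria3 and Gria4 had log2 fold changes between -0.08 and 0.06.

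Among kainate subunits, Grik1, which is known from interneurons, had 22.6, 36.7, 21.1 and 26.7 CPM in Aifm1-KI, against 19.1, 19.3, 19.7 and 20.8 CPM in Aifm1-WT. All knock-in libraries lay above the wild types, 2 of them by little (log2 fold change 0.47, ± 0.15 SE, adjusted p 0.368 by edgeR). The others ranged from -0.04 for Grik4 to 0.27 for Grik2. Among NMDA subunits, Grin3a, which lowers the calcium permeability of the receptor, had 56.1, 115, 42.2 and 83.2 CPM in Aifm1-KI, against 42.7, 47.9, 43.2 and 41.2 CPM in Aifm1-WT. Aifm1-KI 2 and 4 were highest and Aifm1-KI 3 lay among the wild types, for a log2 fold change of 0.78 (± 0.26 SE, adjusted p 0.368 by edgeR). The ratio of Grin2b to Grin2a, which falls as forebrain synapses mature, was 2.46 ± 0.64 in Aifm1-KI and 1.91 ± 0.18 in Aifm1-WT (SD, n = 4 each), with the third knock-in library below every wild type. Among metabotropic receptors, Grm5 had a log2 fold change of 0.35. Grm2, a presynaptic group II receptor, had 43.2, 26.7, 48.6 and 26.6 CPM in Aifm1-KI, against 48.99, 57.1, 53.05 and 48.5 CPM in Aifm1-WT, and only Aifm1-KI 3 reached into the wild-type range (log2 fold change -0.52, ± 0.19 SE, adjusted p 0.395 by edgeR).

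Among GABA-A subunits, Gabrb1 had 242, 311, 205 and 259 CPM in Aifm1-KI, against 189.9, 200.3, 192 and 188 CPM in Aifm1-WT. The groups did not overlap, and the log2 fold change was 0.41 (± 0.11 SE, adjusted p 0.368 by edgeR), while that of its neighbour Gabra4, whose start region is printed above, was -0.06. Gabrq, a theta subunit known from hypothalamus and brainstem, had 1.37, 14.3, 0.838 and 5.76 CPM in Aifm1-KI, against 0.998, 0.928, 0.874 and 0.801 CPM in Aifm1-WT. Its log2 fold change of 2.70 (± 0.77 SE, adjusted p 0.368 by edgeR) came with 2 knock-in libraries at the wild-type level or close to it. Gabra3 had 169, 209, 148 and 192 CPM in Aifm1-KI, against 164, 141, 139 and 145 CPM in Aifm1-WT (log2 fold change 0.30). Gabra5, an alpha subunit of tonic receptors, had 45.8, 51.1, 44.3 and 48.1 CPM in Aifm1-KI, against 41.7, 36.9, 31.03 and 46.5 CPM in Aifm1-WT (log2 fold change 0.29), and both genes overlapped between the groups. Gabrd had 51.1, 31.8, 56.7 and 44.5 CPM in Aifm1-KI, against 64.002, 62.3, 64.6 and 63.01 CPM in Aifm1-WT. All knock-in libraries lay below all wild types (log2 fold change -0.46, ± 0.15 SE, adjusted p 0.368 by edgeR), and Gabrd was chosen after its values were seen. Without overlap between the groups, 4 members were higher in Aifm1-KI, among them Gabrb1, Grid1 and Grik1, against 2.03% of all genes, and 2 were lower, Gabrd and Grm3, against 2.83%, or 4.87% of all genes in both directions. Gabrb2 had a log2 fold change of 0.03. Those of the GABA-B genes were 0.02 for Gabbr1 and -0.05 for Gabbr2.

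**Figure D2:**
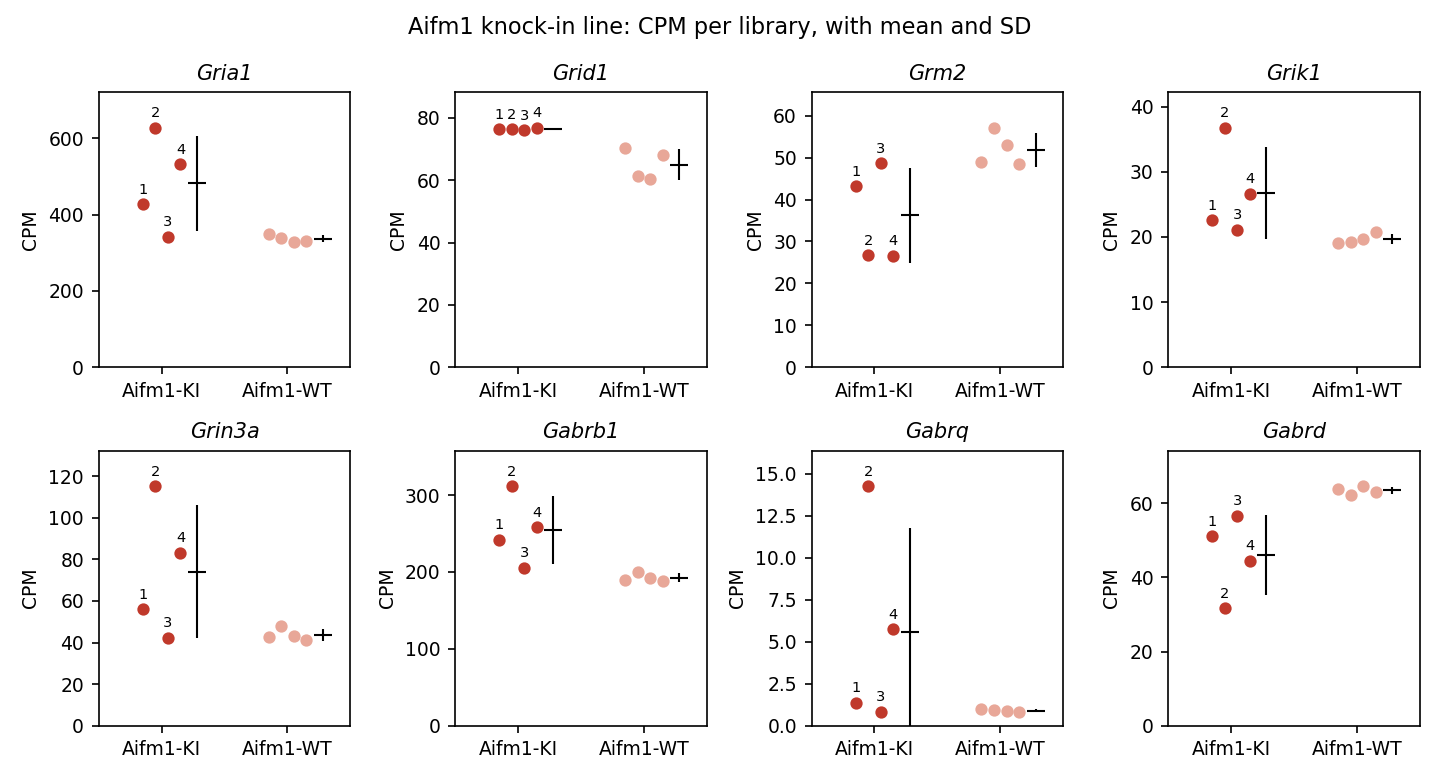
CPM per library for 8 receptor subunits in Aifm1-KI and Aifm1-WT, with the knock-in libraries numbered and the mean and SD of each group as a cross. Aifm1-KI 2 and 4 are the highest knock-in libraries for Gria1, Grik1, Grin3a, Gabrb1 and Gabrq and the lowest for Gabrd, while the 4 knock-in values of Grid1 coincide near 76 CPM.

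In most of the genes above that were higher in Aifm1-KI, the knock-in libraries ran in the order 2, 4, 1, 3, though not in Grid1 or Grm5. The striatal markers ran the same way. They summed to 341, 640, 265 and 591 CPM in Aifm1-KI 1 to 4, against 227 to 279 CPM in Aifm1-WT. So did the 8 hippocampus markers, at 113, 229, 87.6 and 195 CPM, against 88.6 to 151 CPM. The 8 cerebellum markers did too, at 49.9, 65.8, 49.2 and 55.5 CPM, against 48.6 to 56.4 CPM. In both lists 6 of 8 had a higher mean in Aifm1-KI. The 8 thalamus markers did not follow this order, at 199, 280, 249 and 224 CPM. All 10 striatal markers had a higher mean in Aifm1-KI, none was at 0 in any library, and their part in the result was not tested. The 8 choroid plexus markers were also higher on average, with sums of 33.1 to 2877 CPM in Aifm1-KI, against 35.8 to 383 CPM in Aifm1-WT, and only Aifm1-KI 2 lay above the wild-type range. Excitatory neuron markers summed to 5122 to 6660 CPM in Aifm1-KI, against 6800 to 7402 CPM in Aifm1-WT, without overlap. Oligodendrocyte markers ran in the reverse order of these genes, summing to 3989, 1915, 4283 and 2802 CPM in Aifm1-KI 1 to 4, against 3614 to 4927 CPM in Aifm1-WT. All 10 had log2 fold changes below 0, with a median of -0.42. The 10 microglia markers were also all below 0, with a median of -0.07 and sums of 283 to 345 CPM in Aifm1-KI, against 318 to 368 CPM in Aifm1-WT. The part of these lists in the result was not tested either. Gabre had 4.26 CPM in Aifm1-KI 2 and 1.61 in Aifm1-KI 4, against 0.0422 to 0.36 CPM in the other 14 libraries. Gabrg1 had 68.4 and 39.2 CPM in those same libraries, against 21.9 to 32.7 CPM in the rest. Both were chosen after their values were seen.

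Without Aifm1-KI 2 and 4, which leaves 2 knock-in libraries against 4 wild types, a fit chosen with the marker values known again called no member. The striatal markers of the remaining knock-in libraries were 341 and 265 CPM. Of 40 members, 11 were higher at an unadjusted p under 0.05, against 2.4% of all genes, and 3 were lower, against 3.79%, with 6.19% in both directions. The 14 shared 7 with the 16 found in all 8 libraries, or 50% of the 14 and 43.8% of the 16. Among them were Gabrb1, Gabrd, Gria1, Grid1 and Grin2b. The median log2 fold change was 0.13 over the members and -0.0012 over all genes. Of the 40 members, 31 were above 0, and the share of all genes above 0 was not taken in this fit. Grid1 was at 0.24, while Gabrb1 was at 0.23, Gria1 at 0.21, Grin3a at 0.19 and Gabrq at 0.35. Grik1 was at 0.16 and no longer met the unadjusted threshold (edgeR p 0.0640). The 7 members that met it only in this fit were Grik3 at 0.30, Grm8 at 0.32, Grik4 at 0.20, Gabrg3 at 0.19, Grin2a at 0.16, Grin2c at -0.19 and Gabra6, which has few reads, at -2.37. Grik4 and Grin2a were both at -0.04 in all libraries. Gabrd was at -0.23, Grm2 at -0.17 and Gabrg1 at -0.15, the last opposite in sign to its 0.63 in all libraries.

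**Figure D3:**
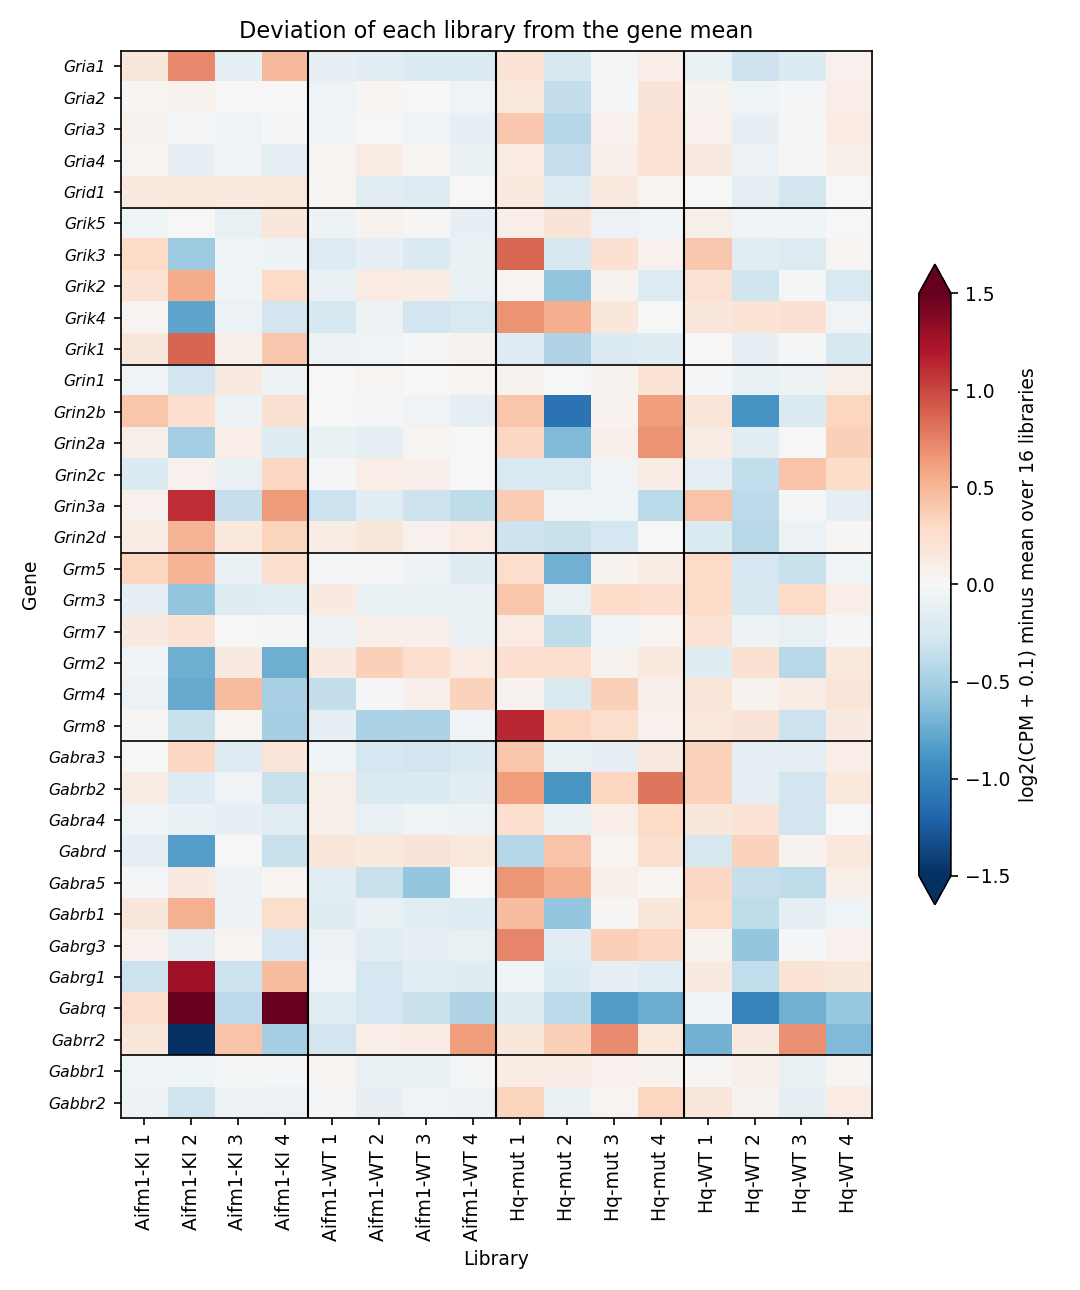
Deviation of each library (columns) from the gene's mean over the 16 libraries (rows), as log2(CPM + 0.1), with colours limited at 1.5 in both directions. Aifm1-KI 2 and 4 stand out at Gabrq and Gabrg1, Hq-mut 2 and Hq-WT 2 are low at Grin2b, and most other squares are close to 0.

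The second comparison set Harlequin mutants against their wild-type littermates, pairing the libraries by replicate number. No receptor subunit was called at an adjusted p under 0.05 by the paired edgeR quasi-likelihood test, against 0.0167% of the 17969 genes tested, and the lowest adjusted p of a member was 0.523. Of the 39 members tested, 3 were higher at an unadjusted p under 0.05, namely Gabrg3, Gabra5 and Grm8, against 3.81% of all genes, and none was lower, against 4.16%, with 7.97% of all genes in both directions. The median log2 fold change was 0.05 over the members and 0.0060 over all genes, with 25 of 39 members above 0, against 51.6% of all genes. No member separated the groups without overlap, against 1.58% of all genes. In all 4 pairs, 6 members were higher in Hq-mut, namely Gabbr1, Gabra3, Gabrg3, Gabrr2, Gria1 and Grin1, against 11.9% of all genes, and 0 members were lower, against 6.88%. With no filter on low counts, 3 members were called, Gabra6, Gabrg3 and Gabra5, in a fit that called 1.02% of all genes. Gabra6, at -6.17 there, rests on a single library, Hq-WT 3. Among the 39 members that passed the filter, none had a log2 fold change as far from 0 as the -2.89 of Aifm1.

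Gabrg3, a gamma subunit, had 74.4, 39.96, 57.1 and 55.3 CPM in Hq-mut libraries 1 to 4, against 46.1, 29.7, 43.9 and 46.6 CPM in Hq-WT libraries 1 to 4. Each mutant library was above its partner of the same number, and the groups overlapped only through Hq-mut 2, whose partner Hq-WT 2 was the lowest of all. The log2 fold change was 0.41 (± 0.09 SE, adjusted p 0.523 by edgeR). In the knock-in line Gabrg3 had 46.6, 40.5, 45.9 and 37.3 CPM in Aifm1-KI, against 41.9, 39.9, 41.03 and 41.3 CPM in Aifm1-WT, giving a log2 fold change of 0.07, or 0.19 without Aifm1-KI 2 and 4. Gabra5, the neighbour of Gabrg3 on chromosome 7, had 73.6, 68.1, 49.2 and 47.7 CPM in Hq-mut, against 57.8, 36.5, 35.9 and 49.6 CPM in Hq-WT. Pairs 1, 2 and 3 were higher in the mutant and pair 4 was slightly lower (log2 fold change 0.39, ± 0.14 SE, adjusted p 0.591 by edgeR). Without pair 2 the log2 fold change was 0.23. Gabra3 had 226, 157, 156 and 185 CPM in Hq-mut, against 214, 154, 154 and 181 CPM in Hq-WT, each pair higher in the mutant by a small amount.

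Grm8, a presynaptic group III receptor, had 41.7, 23.8, 22.7 and 19.9 CPM in Hq-mut, against 21.1, 21.6, 15.2 and 20.9 CPM in Hq-WT. Hq-mut 1 was far above every other library and pair 4 went the other way (log2 fold change 0.38, ± 0.16 SE, adjusted p 0.623 by edgeR). Without pair 1 it was 0.18 (unadjusted p 0.258 by edgeR). Grik1 had 17.5, 14.7, 17.4 and 17.7 CPM in Hq-mut, against 20.1, 18.4, 19.9 and 16.99 CPM in Hq-WT. It was lower in pairs 1, 2 and 3 and higher in pair 4 (log2 fold change -0.19, ± 0.10 SE, adjusted p 0.658 by edgeR). Gria1 had 438, 321, 377 and 406 CPM in Hq-mut, against 352, 308, 328 and 397 CPM in Hq-WT, with each pair higher in the mutant and a log2 fold change of 0.13 (± 0.07 SE, adjusted p 0.697 by edgeR), or 0.07 without pair 1. Among the others, the NMDA subunits ranged from -0.17 for Grin2c to 0.12 for Grin2b, the kainate subunits other than Grik1 from -0.12 to 0.19, and the metabotropic receptors other than Grm8 from -0.09 to 0.20.

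**Figure D4:**
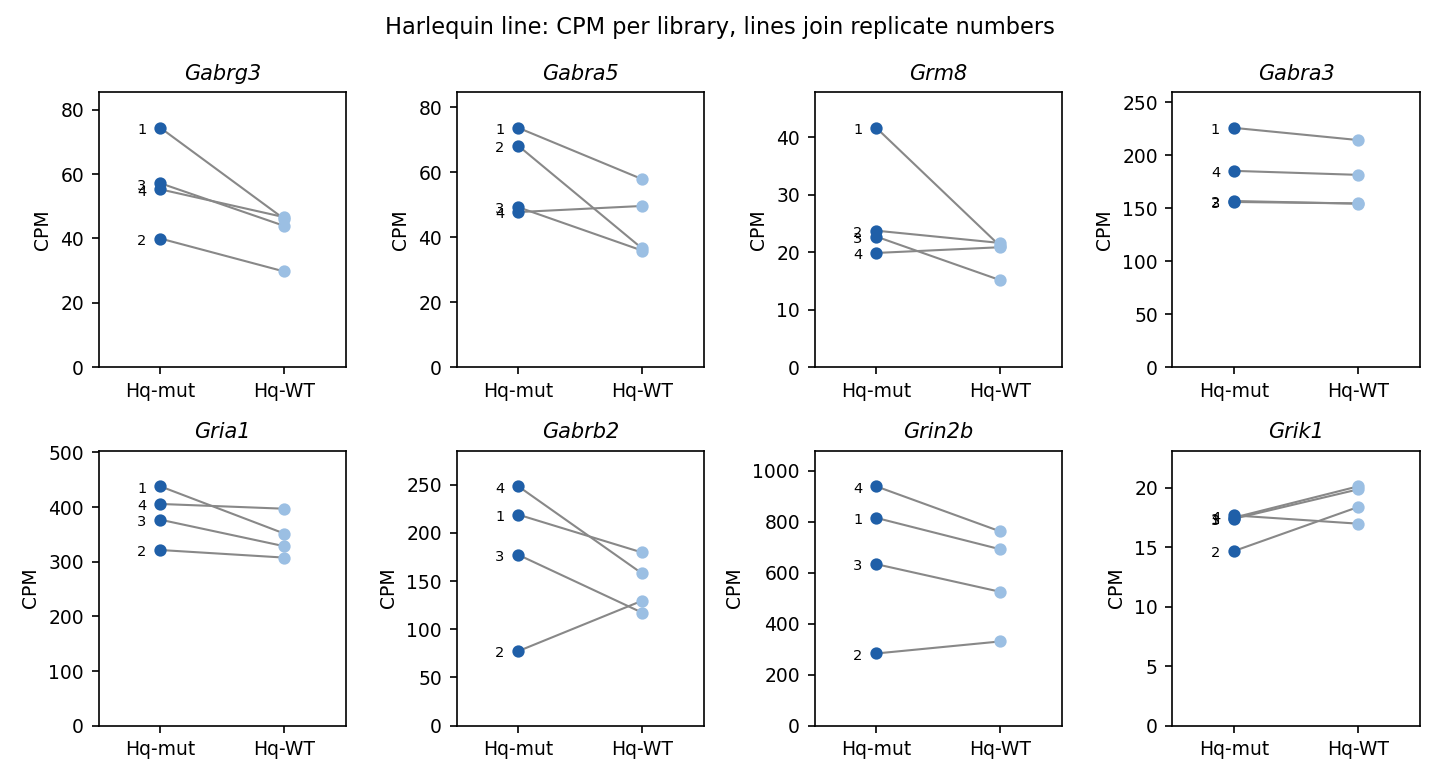
CPM per library for 8 receptor subunits in Hq-mut and Hq-WT, with grey lines joining libraries of the same replicate number. Gabrg3 and Gria1 are higher in the mutant in each pair, while pair 2 runs against the others for Gabrb2 and Grin2b.

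The second Harlequin pair differed from the rest in a way linked to gene length. Over 4597 genes with at least 6 kb of exon, the median deviation from the gene mean was -0.21 in Hq-mut 2 and -0.10 in Hq-WT 2 on the log2 scale, against -0.01 to 0.08 in the other 14 libraries. Over 2094 genes with less than 2 kb it was 0.55 in Hq-mut 2 and 0.34 in Hq-WT 2, against -0.11 to 0.01 elsewhere. Receptor subunits are long genes, 25 of 46 with at least 6 kb of exon and 0 with less than 2 kb, and their median of 6194 bases compares with 4457.5 over the genes with a mean log2 CPM of at least 1. Grin2b, the longest, had 814, 283, 633 and 938 CPM in Hq-mut, against 692, 330.1, 525 and 762 CPM in Hq-WT. Gabrb2 had 219, 77.4, 177 and 248 CPM in Hq-mut, against 179.7, 129.6, 117 and 158 CPM in Hq-WT. In both genes 3 pairs were higher in the mutant and pair 2 was lower, and both were chosen after their values were seen. Why the second pair differs was not tested.

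Without pair 2, no member was called either, and the lowest adjusted p of a member was 0.123, for Gabrb2 (log2 fold change 0.49, SE 0.08, edgeR). Of 39 members, 14 were then higher at an unadjusted p under 0.05, against 7.99% of all genes, and 2 were lower, Gabrg1 and Grin2c, against 6.88%. The 16 shared 2 with the 3 found in all pairs, Gabrg3 and Grm8. The median log2 fold change was 0.15 over the members and 0.0010 over all genes. Of the 39 members, 27 were above 0, and the share of all genes above 0 was not taken in this fit. Grin2b was at 0.25 and Gabrg3 at 0.42. Without pair 1, 3 or 4 the median was 0.05, 0.02 and 0.03. Without pair 4, 6 members met the unadjusted threshold, against 6.66% of all genes, and without pair 1 or pair 3 it was 2, against 4.21% and 4.81%. The 2 without pair 3, the pair of Hq-mut 3, were Gabrg3 and Grik4, and Gabra5 and Grm8 no longer met the threshold there. Within single pairs the median over the 37 members with a mean log2 CPM of at least 1 was 0.11, -0.05, 0.13 and 0.07 in pairs 1 to 4, with 25, 17, 27 and 27 of the 37 higher in the mutant. Over all genes at that level with at least 6 kb of exon, the medians were 0.02, -0.09, 0.07 and 0.07 in the same order. The share of all genes higher in the mutant within single pairs was not taken. Striatal markers summed to 369, 252, 853 and 333 CPM in Hq-mut 1 to 4, against 282 to 309 CPM in Hq-WT, and all 10 had a higher mean in Hq-mut. Choroid plexus markers summed to 6.59 to 381 CPM in Hq-mut, against 11.7 to 5505 CPM in Hq-WT, with only Hq-WT 2 above the mutant range. Oligodendrocyte markers summed to 2223, 4813, 4965 and 3407 CPM in Hq-mut 1 to 4, against 2423, 1987, 6061 and 3123 CPM in Hq-WT 1 to 4. All 10 had log2 fold changes above 0, with a median of 0.28, while the sums of pairs 1 and 3 were lower in the mutant. Their part in the result was not tested.

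**Figure D5:**
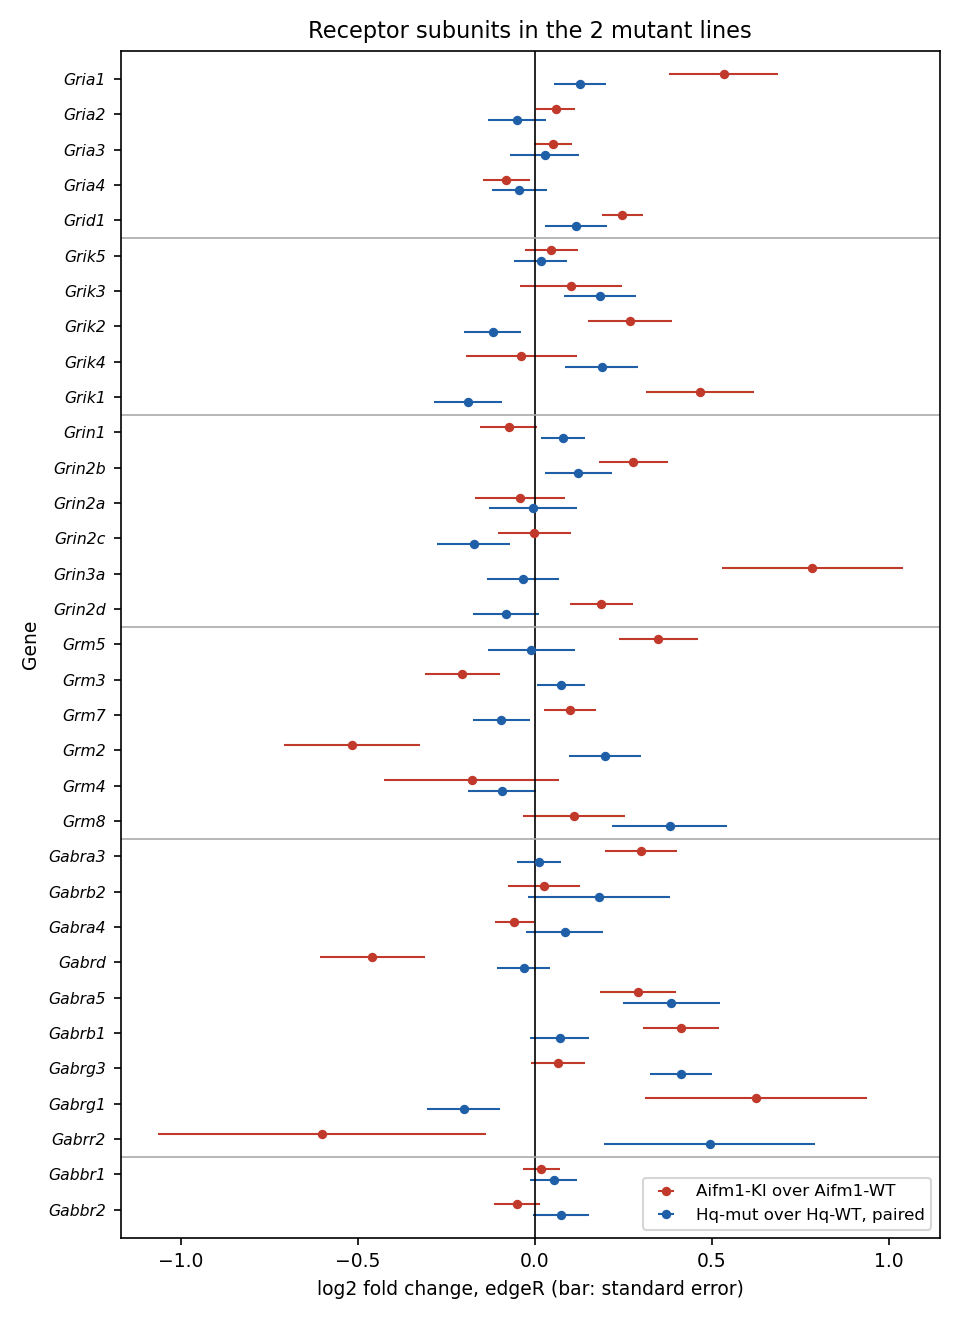
Log2 fold changes from edgeR with their standard errors for receptor subunits, for Aifm1-KI over Aifm1-WT (red) and Hq-mut over Hq-WT (blue, paired), ordered by family and level. Gria1, Grik1, Grin3a and Gabrb1 lie to the right in the knock-in line and nearer to 0 or below it in the Harlequin line, Gabrg3 lies to the right in the Harlequin line and near 0 in the knock-in line, and no point was called at an adjusted p under 0.05. Gabrq, at 2.70 in the knock-in line, members not tested in both lines and some further members are not drawn.

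The third comparison tested whether the mutation effect differed between the lines, as the effect in Harlequin minus the effect in the knock-in, over all 16 libraries. No member was called at an adjusted p under 0.05, against 0.0105% of 19129 genes, and the lowest adjusted p of a member was 0.450 (edgeR quasi-likelihood test). At an unadjusted p under 0.05 there were 12 of 40 members, against 10.4% of all genes. Of these, 3 had the larger value in Harlequin, namely Gabrd, Gabrg3 and Grm2, against 4.46%, and 9 had the larger value in the knock-in, among them Gabra3, Gabra6, Gabrb1, Gabrq, Grik1, Grik2, Grin2d and Grin3a, against 5.96%. The difference was -0.65 for Grik1 (± 0.20 SE, adjusted p 0.450 by edgeR), 0.35 for Gabrg3 (SE 0.12), 0.72 for Grm2 (SE 0.25) and -0.82 for Grin3a (SE 0.32), all on the log2 scale. Grm2 had 53.1, 52.9, 46.2 and 49.2 CPM in Hq-mut, against 39.3, 52.3, 33.3 and 49.5 CPM in Hq-WT, where its log2 fold change was 0.20, against -0.52 in the knock-in. Grin3a had 69.6, 51.1, 50.98 and 40.4 CPM in Hq-mut, against 71.8, 40.7, 52.4 and 48.9 CPM in Hq-WT, a log2 fold change of -0.03.

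Gabra6 had the widest difference, -4.94 (± 1.72 SE, adjusted p 0.450 by edgeR), and rests on few reads. It had 0.211, 0.759, 0.0838 and 0.0872 CPM in Aifm1-KI against 0.57, 0.404, 2.08 and 0.534 CPM in Aifm1-WT, and 0, 0, 0.045 and 0 CPM in Hq-mut against 0, 0, 5.45 and 0.0486 CPM in Hq-WT. In the Harlequin line every library but Hq-WT 3 was at or under the limit that a count of 0 allows, so Hq-WT 3 alone sets that side. The median difference over the 40 members was -0.01 and over all genes -0.0069. Without Aifm1-KI 2 and 4, in a fit added after seeing the data, 3 of 40 members met the unadjusted threshold, against 5.36% of all genes. They were Gabra6, Grm2 and Grik1, the last at -0.36, while Gabrg3 and Grin3a no longer met it. Leaving out single libraries gave between 6 and 19 members, the fewest without Hq-WT 1, against 8.23% of all genes, and the most without Aifm1-KI 3, against 16.1%.

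The fourth comparison set the wild types of the lines side by side, Hq-WT against Aifm1-WT, where line, litter and handling cannot be told apart. These groups also serve as the controls above, so the values are not independent of those. No member was called at an adjusted p under 0.05, against 0.558% of 18106 genes, and the lowest adjusted p of a member was 0.144. At an unadjusted p under 0.05, 3 of 40 members were higher in Hq-WT, against 5% of all genes, and 1 was lower, against 7.73%. Grik4, a high-affinity kainate subunit, had 33.9, 34.7, 35.1 and 28.8 CPM in Hq-WT, against 25.4, 28.4, 24.6 and 25.6 CPM in Aifm1-WT. The groups did not overlap (log2 fold change 0.34, ± 0.09 SE, adjusted p 0.144 by edgeR), and it was the only member higher without overlap, against 2.69% of all genes. DESeq2 called Grik4 (adjusted p 0.0274), and no other member, while calling 2.28% of all genes. In the mutants Grik4 had 47.8, 43.9, 33.8 and 29.97 CPM in Hq-mut and 30.9, 17.2, 28.2 and 24.9 CPM in Aifm1-KI.

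Grin2d, an NMDA subunit of interneurons, had 16.1, 13.9, 17.5 and 18.7 CPM in Hq-WT, against 20.1, 20.9, 19.3 and 20.2 CPM in Aifm1-WT. It was the only member lower without overlap, against 4.59% of all genes, and 7.28% of all genes separated the wild types in either direction (log2 fold change -0.29, ± 0.11 SE, adjusted p 0.292 by edgeR). In the mutants Grin2d had 14.9, 14.7, 15.4 and 18.6 CPM in Hq-mut and 19.96, 26.4, 20.7 and 23.4 CPM in Aifm1-KI. Grm8, whose Hq-WT values stand above, had 17.1, 13.6, 13.7 and 18.1 CPM in Aifm1-WT (log2 fold change 0.34, ± 0.13 SE, adjusted p 0.314 by edgeR) and 19.2, 15.04, 19.5 and 13.4 CPM in Aifm1-KI. Gabra3 had a log2 fold change of 0.25 and Grm2 one of -0.26. The median over the members was 0.05, with 30 of 40 above 0, and over all genes 0.0046, with 51.0% above 0. Without Hq-WT 2, 13 of 40 members met the unadjusted threshold, against 14.7% of all genes. Leaving out any other single library gave between 1 and 6, the fewest without Aifm1-WT 2, against 8.07% of all genes, and the most without Hq-WT 3, against 18%. Marker lists differed between the wild types as well. All 10 oligodendrocyte markers had log2 fold changes below 0, with a median of -0.49 and sums of 1987 to 6061 CPM in Hq-WT, against 3614 to 4927 CPM in Aifm1-WT. All 10 inhibitory neuron markers were above 0, with a median of 0.14 and sums of 905 to 1118 CPM in Hq-WT, against 828 to 911 CPM in Aifm1-WT. Striatal markers summed to 282 to 309 CPM in Hq-WT, against 227 to 279 CPM in Aifm1-WT, without overlap. Of these 10 markers, 7 had log2 fold changes above 0 and 3 below, with a median of 0.13. Of the 8 thalamus markers, 3 were above 0 and 5 below, with a median of -0.20. Their sums overlapped, at 177 to 229 CPM in Hq-WT and 188 to 230 CPM in Aifm1-WT. Only 1 of them was called, Lhx9, at -3.21 (edgeR adjusted p 0.00778). The part of these lists in the values of the members was not tested.

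Genes that work with these receptors were read in the same fits, in 5 lists with 56 genes, of which none was called in any of the 4 comparisons. In the knock-in, the auxiliary subunits of AMPA and kainate receptors had a median log2 fold change of 0.27, with 9 of 13 above 0, 8 higher and 1 lower at an unadjusted p under 0.05, against 7.05% higher and 4.34% lower over all genes. Their smallest p was that of Shisa9, an AMPA receptor modulator, at 73.6 ± 6.46 CPM in Aifm1-KI and 59.4 ± 2.82 CPM in Aifm1-WT (SD, n = 4 each, log2 fold change 0.32). Among 14 scaffolds of glutamate synapses the median was -0.03, 2 were higher and 0 lower, and Grip1, which binds AMPA receptor tails, was at 0.45. For the other lists the medians were 0.05 for 12 GABA receptor partners (1 higher, Shisa7 at 0.23), 0.02 for 10 transporters (1 higher, the vesicular glutamate transporter Slc17a6 at 0.58) and 0.01 for 7 enzymes (1 higher and 1 lower, glutamine synthetase Glul at -0.21). Slc17a6 is also on the list of 8 thalamus markers, of which 6 had log2 fold changes above 0, and their part in its value was not tested.

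In Hq-mut the auxiliary subunits had a median of 0.01, with 1 higher and 2 lower at an unadjusted p under 0.05, against 3.81% higher and 4.16% lower over all genes, the smallest p being that of Cnih3 at 0.23. The scaffolds had a median of -0.10 with 0 higher and 4 lower, and Shank2, a postsynaptic density protein, was at -0.21. The GABA receptor partners had a median of 0.05 with 1 higher, Kctd8, a GABA-B receptor auxiliary subunit, at 9.19 ± 1.65 CPM in Hq-mut and 6.30 ± 0.84 CPM in Hq-WT (SD, n = 4 each, log2 fold change 0.51, edgeR adjusted p 0.523). The transporters had a median of -0.03 with 1 higher, Slc17a8 at 0.43. The enzymes had a median of -0.01 with none past the unadjusted threshold, the smallest p being that of Aldh5a1, an enzyme of the GABA breakdown pathway, at -0.12.

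For the difference between the lines the medians were -0.17, -0.10, 0.02, -0.09 and -0.05 in the same order of lists, with 0 higher in each and 4, 1, 1, 1 and 0 lower, against 4.46% higher and 5.96% lower over all genes. The smallest p values belonged to Shisa6 at -1.43, Grip1 at -0.34, Shisa7 at -0.33, Slc17a6 at -1.14 and Aldh5a1 at -0.12. Between the wild types the auxiliary subunits had a median of 0.14 with 5 higher and 0 lower, against 5% higher and 7.73% lower over all genes, led by Shisa6 at 0.68, which had 22.2 ± 5.68 CPM in Hq-WT and 13.8 ± 1.22 CPM in Aifm1-WT (SD, n = 4 each, edgeR adjusted p 0.117). The medians of scaffolds, GABA receptor partners, transporters and enzymes were 0.02, 0.09, 0.04 and 0.12. The smallest p values there were those of Homer1 at 0.60, Shisa7 at -0.26, Slc17a6 at -0.56 and Gad2, a GABA-producing enzyme, at 0.17.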

How the data were processed

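Cortical RNA from 16 libraries in 4 groups of 4 was analysed. Per the labels' protocols, the authors extracted RNA with TRIzol, made KAPA libraries and read 51-base single ends on an Illumina instrument. Per the series' design text and the submitters' processing notes, reads were trimmed, mapped to mm10 with STAR 2.6 and counted with HTSeq. Neither the strand setting nor the annotation or the HTSeq version is given in the sources used here. The table as deposited holds raw read counts per Ensembl gene, not normalized. Reads that map to several places or to overlapping genes may be lost in such counting.

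Symbols, exon lengths and coordinates came from GENCODE M21, which matched 55480 of 55573 IDs. Counts were fitted with edgeR 4.0.16 in R 4.3.3 (glmQLFit and glmQLFTest, two-sided, TMM factors, filterByExpr by group, Benjamini-Hochberg adjustment over all genes tested, called under 0.05). CPM were scaled by TMM factors over all 16 libraries. The fits covered Aifm1-KI against Aifm1-WT, Hq-mut against Hq-WT with the replicate number as a block, the difference of these effects, and Hq-WT against Aifm1-WT. The number pairs the Harlequin libraries in the data: deviations from the group means correlated at 0.350 to 0.494 between libraries of the same number, and at -0.360 to 0.0931 between others. In the knock-in line the same-number values were -0.0203 to 0.0797, and no block was used. No 2 libraries of a group were copies, with a chi-square per gene of 3.48 to 95.7 over 24 pairs.

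Not tested for low counts were Gabre, Gabrp, Gabrr1, Gabrr3, Grin3b and Grm6 in every comparison and Gabra6 in the Harlequin comparison. The symbol rule fixed which genes are members, but the rule and the lists were chosen with earlier results of these data known. Values per library are given for the 5 members with the smallest p in each comparison and the member with the highest level per kb in each family, and for each partner list the gene with the smallest p is named. Some members enter every count and median but are not reported by name here. Other genes are named as chosen after their values were seen. The fits were tested on simulated data. Alternatives were another scaling, no filter on low counts, DESeq2 1.42.0, limma-voom 3.58.1, the block added or left out, and leaving out single libraries.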

Additional observations from a re-analysis of the deposited data

Results flagged for a closer look

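For the 20 members given library by library, each group of 4 was searched for a library far from the other 3, which made 80 groups and 5 hits, where chance gives about 1 group in 20. Gabra6 stood out at 5.45 CPM in Hq-WT 3, against 0 to 0.0486 CPM in the other Hq-WT libraries. The 8 cerebellum markers summed to 82.0 CPM in that library, against 38.2 to 45.1 CPM in the other Hq-WT libraries, and their part was not tested. Gabra6 also stood out at 2.08 CPM in Aifm1-WT 3, against 0.404 to 0.570 CPM in the other Aifm1-WT libraries. Gabrg3 was low in Hq-WT 2, at 29.7 CPM, against 43.9 to 46.6 CPM. Grik1 was low in Hq-mut 2, at 14.7 CPM, against 17.4 to 17.7 CPM. Both are libraries of the second Harlequin pair. Grm8 was low in Hq-WT 3, at 15.2 CPM, against 20.9 to 21.6 CPM.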

How the results depend on the processing

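No member was called in any comparison under the main settings, and leaving out any single library, or any single Harlequin pair, gave 0 to 0 members called in each comparison. Without the filter on low counts the Harlequin comparison called 3 members, Gabra6 at -6.17 (adjusted p 1.6e-07), Gabrg3 at 0.42 (adjusted p 0.0034) and Gabra5 at 0.39 (adjusted p 0.0097), in a fit that called 368 of 35998 genes (1.02%) with edgeR, and the cause was not tested. DESeq2 called 1 member, Grik4, in Hq-WT against Aifm1-WT (log2 fold change 0.36, adjusted p 0.0274), among 504 of 22138 genes (2.28%). With a replicate block, the knock-in comparison called 0 members with a median of 0.06 and the wild-type comparison called 0 with a median of 0.04. With no replicate block, the Harlequin comparison called 0 members with a median of 0.06, and 0 members had an unadjusted p under 0.05. The difference of effects without that pairing called 0, with a median of 0.0078. That median, -0.011 in the fit reported, was also above 0 with other size factors, at 0.0065, and without the filter, at 0.010, and ran from -0.065 to 0.018 when single libraries were left out. Since no member was called, no called value could change sign. Among the members with an unadjusted p under 0.05 in a comparison, or among its 5 smallest, none changed sign in that comparison under any alternative run. Of other members, Gabrg1 was at -0.15, Grin2a at 0.16 and Grik4 at 0.20 without Aifm1-KI 2 and 4, opposite in sign to their values in all knock-in libraries. Over all genes, the knock-in fit gave 0 calls with edgeR, 159 with DESeq2 and 46 without Aifm1-KI 3. The Harlequin fit gave 3 with edgeR and 24 with DESeq2, the difference of effects 2 and 18, and the wild-type fit 101 with edgeR, 504 with DESeq2 and 560 without the filter. Leaving out 1 library in the wild-type fit gave 32 to 231. For low members such as Gabra6 and Gabrq the depth limits precision.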
